A study of Mus musculus with 12 samples.

Results

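The 5 genes Cd3d, Cd3e, Cd3g, Cd8a and Cd8b1 encode proteins of the T cell receptor complex and of its coreceptor CD8, and their loci were read in 4 sorted populations of mouse intestinal epithelial cells to see whether open chromatin of T cell genes was listed in any of them. Members were all listed open regions (peaks) that overlapped, by at least 1 bp, either of 2 fixed windows on mm9: chr9:44760000-44840000 for Cd3e, Cd3d and Cd3g (80 kb, the Cd3 window) and chr6:71240000-71360000 for Cd8b1 and Cd8a (120 kb, the Cd8 window). There were 8 such peaks among 210325 peaks in all. Joined across the 4 lists wherever peaks overlapped or touched, they formed 4 merged regions of 82365.

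The populations were sorted from intestinal epithelium of C57Bl/6 mice with a Sox9EGFP reporter, and are called Sox9 Negative, Sublow, Low and High after how brightly they carry this reporter of the crypt transcription factor Sox9. Each was profiled by Omni-ATAC-seq, in which a transposase tags accessible DNA, in 3 libraries (12 in all), and the labels give 12000 cells collected per population. Treatments, ages and the number of mice are not given in the sources used here, nor is the construct of the reporter. Every population is represented by 1 consensus peak list with no read count or signal, so depth is unknown, no value below has a replicate error and no test between populations could be made.

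CD3 gamma and CD3 delta each pair with CD3 epsilon within the T cell receptor complex. The tails of these proteins pass on the signal when the receptor binds antigen. CD8 alpha and CD8 beta form the coreceptor that binds class I major histocompatibility molecules, and many intraepithelial lymphocytes of the intestine carry CD8 alpha without CD8 beta. Intraepithelial lymphocytes sit between the epithelial cells and can be carried along when epithelium is dissociated, which makes these loci a usual place to look for them. In bulk chromatin data a small number of open cells and weak opening in many cells cannot be told apart.

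The start regions of the member genes are shown because the windows were chosen to cover these genes. RefSeq sequences of GRCm38.p6 were found for 4 of the 5 members by symbol, each with 300 bases around the gene's start, while no entry was matched for Cd8b1. They run 5′ to 3′ along the gene's own strand, and capitals mark GGAAG on either strand. GGAAG is a longer form of GGAA, the core bound by ETS factors, a family that includes regulators of lymphocyte genes. GGAA followed by another base was neither marked nor counted. On GRCm38.p6 the sequences lie at chr9:44980382-44980681 (minus strand, Cd3g), chr9:44981536-44981835 (plus, Cd3d), chr9:45009562-45009861 (minus, Cd3e) and chr6:71373177-71373476 (plus, Cd8a). These positions belong to another build than the peaks and cannot be set against peak positions.
Cd3g: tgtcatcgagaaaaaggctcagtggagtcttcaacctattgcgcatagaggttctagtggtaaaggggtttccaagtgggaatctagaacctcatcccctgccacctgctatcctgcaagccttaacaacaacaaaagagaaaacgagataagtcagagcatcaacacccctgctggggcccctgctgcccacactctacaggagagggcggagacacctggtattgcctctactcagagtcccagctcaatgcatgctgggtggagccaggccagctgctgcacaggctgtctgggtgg
Cd3d: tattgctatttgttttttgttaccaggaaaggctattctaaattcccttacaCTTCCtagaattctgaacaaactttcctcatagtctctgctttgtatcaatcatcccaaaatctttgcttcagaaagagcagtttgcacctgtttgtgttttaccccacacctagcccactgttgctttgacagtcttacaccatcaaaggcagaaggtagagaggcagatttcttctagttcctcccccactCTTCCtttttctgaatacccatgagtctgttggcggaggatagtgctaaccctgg
Cd3e: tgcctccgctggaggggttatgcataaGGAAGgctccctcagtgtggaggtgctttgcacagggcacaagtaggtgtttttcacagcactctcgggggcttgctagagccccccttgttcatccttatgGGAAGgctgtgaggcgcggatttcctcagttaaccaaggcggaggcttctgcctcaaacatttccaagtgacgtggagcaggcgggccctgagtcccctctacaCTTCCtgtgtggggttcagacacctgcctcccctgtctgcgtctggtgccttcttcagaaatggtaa
Cd8a: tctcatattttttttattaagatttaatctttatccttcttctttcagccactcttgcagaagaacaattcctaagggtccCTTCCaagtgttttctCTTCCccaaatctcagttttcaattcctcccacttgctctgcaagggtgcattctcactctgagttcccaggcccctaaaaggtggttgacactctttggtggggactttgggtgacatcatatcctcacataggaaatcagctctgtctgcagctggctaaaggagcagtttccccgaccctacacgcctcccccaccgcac

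GGAAG occurred at 3 places in the Cd3e sequence, at 2 in Cd3d, at 2 in Cd8a and nowhere in Cd3g. The Cd3g sequence does hold the shorter core GGAA. GGAAG occurred in 71.4% of the 32851 RefSeq promoters of that length, so a match is common. The E-box CAGNTG, bound by E proteins, was found at 3 places in Cd3g and at 1 in each of Cd3d, Cd3e and Cd8a, against 51.4% of all promoters with at least 1. AGATAA, a motif of GATA factors, was matched once in Cd3g and not in Cd3d, Cd3e or Cd8a (11.2% of all promoters). TGTGGT, a motif of RUNX factors, was in none of the 4 sequences (16.8% of all promoters). Both strands were searched for every motif, CAGNTG included, and a match describes letters and not binding.

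The Cd8 window was almost empty. Sox9 Negative, Sublow and Low held no peak in its 120 kb, and Sox9 High held 1 peak of 140 bp at chr6:71246794-71246933. The High peak lay 6794 bp inside the edge nearer to the lower coordinates and 113067 bp from the other edge. Wherever Cd8b1 and Cd8a start within the window, no peak was listed there in Negative, Sublow or Low. Empty windows were common in these lists. Of 20064 autosome windows of 120 kb on a fixed grid, at least 1 peak of the list was held by 48.5% (Negative), 53.5% (Sublow), 57.3% (Low) and 59.2% (High). Peaks of High and of no other list, as at Cd8, were seen in 5.15% of those windows, and 36.1% had no peak of any list.

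The single High peak was narrow. At 140 bp it was wider than 3.54% of the High peaks, whose median was 383 bp. It was 1 of 13694 merged regions held by High alone, which are 16.6% of all merged regions. The median of their widths was 245 bp, and 7.21% were narrower than 140 bp. The nearest peak of another list was 17.72 kb away in Negative, 24.5 kb in Sublow and 24.6 kb in Low, so no list had a peak beside it. The Cd8 window held 0 peaks of any list under a limit of at least 200 bp on width, with the 22730 widest peaks of each list, or with the window 10 kb narrower at both ends. Each of these results follows from the width or position of the High peak.

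Each list had a long stretch with no peak that covered all or most of the Cd8 window. The stretch measured 141 kb (Negative), 149 kb (Sublow), 149 kb (Low) and 138 kb (High), and no base of the window was outside it in Negative, Sublow or Low. Of the autosome gaps between neighbouring peaks of the same list, 5.85% (Negative), 4.87% (Sublow), 4.23% (Low) and 4.93% (High) were at least as long. Between the High peak and the next region of any list there were 123253 bp without a listed peak, and 3.30% of the gaps between merged regions were that long or longer. Each stretch was the longest that reached into the window, and a long gap takes up more of the genome than a short one. Shares of gaps therefore make such a stretch look rarer than it is along the genome. Windows of 120 kb with no peak of the list were 51.5% (Negative), 46.5% (Sublow) and 42.7% (Low) of the grid.

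**Figure D1:**
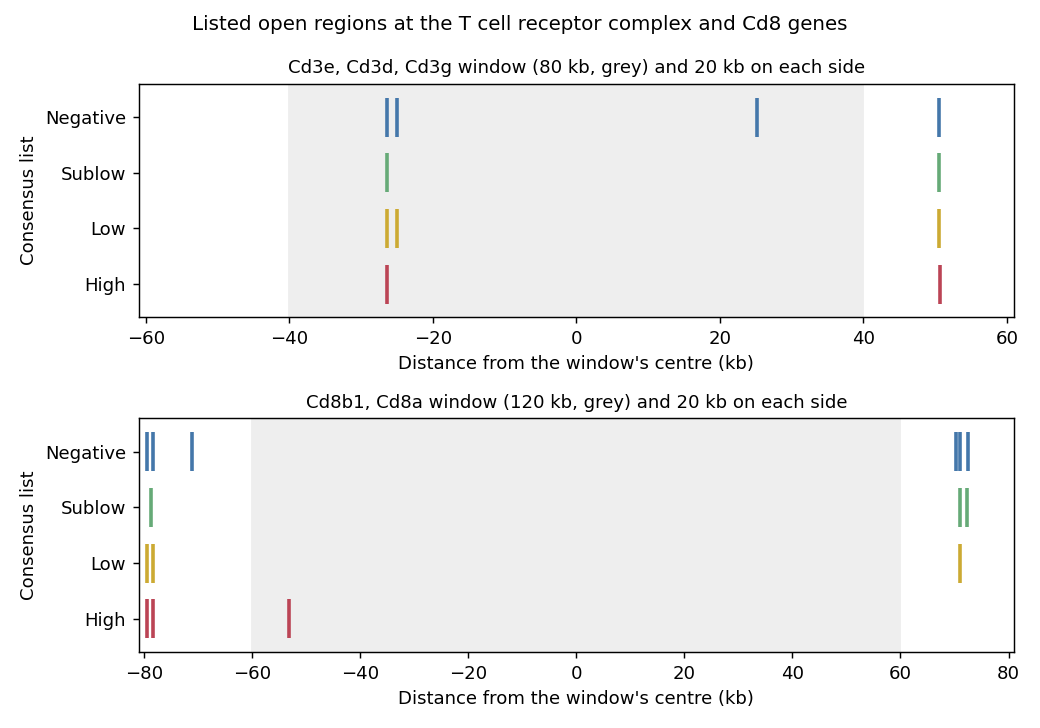
Peaks of the 4 consensus lists (rows) in the Cd3 window and the Cd8 window (grey) and within 20 kb on each side, by distance from the window's centre in kb. Each bar marks the middle of 1 peak and its thickness is not to scale. The Cd8 window holds 1 peak, in High, and the Cd3 window holds 7, of which 4 stand in 1 column.

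The Cd3 window held 7 peaks, with 3 in Negative, 2 in Low, 1 in Sublow and 1 in High. On the grid of 30107 autosome windows of 80 kb, at least 1 peak was held by 42.3% (Negative), 47.1% (Sublow), 51.1% (Low) and 52.7% (High). At least 3 Negative peaks were held by 22.4% of these windows and at least 2 Low peaks by 37.9%. Negative held more peaks than each of the other lists here, which was so in 5.33% of all 80 kb windows. That share is low in part because 42.0% of these windows had no peak of any list, so no list could lead there. Negative was also the shortest list, with 45461 peaks against 52113 (Sublow), 58356 (Low) and 54395 (High). The lead of Negative was lost with peaks of at least 200 bp, and with the 22730 widest peaks of each list. Every list then held 1 peak in the window. This loss follows from width alone, since the Negative and Low peaks removed measured 164 to 193 bp. The count of Negative was 1 above that of Low, and the lists carry no replicate spread against which to judge that gap.

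**Figure D2:**
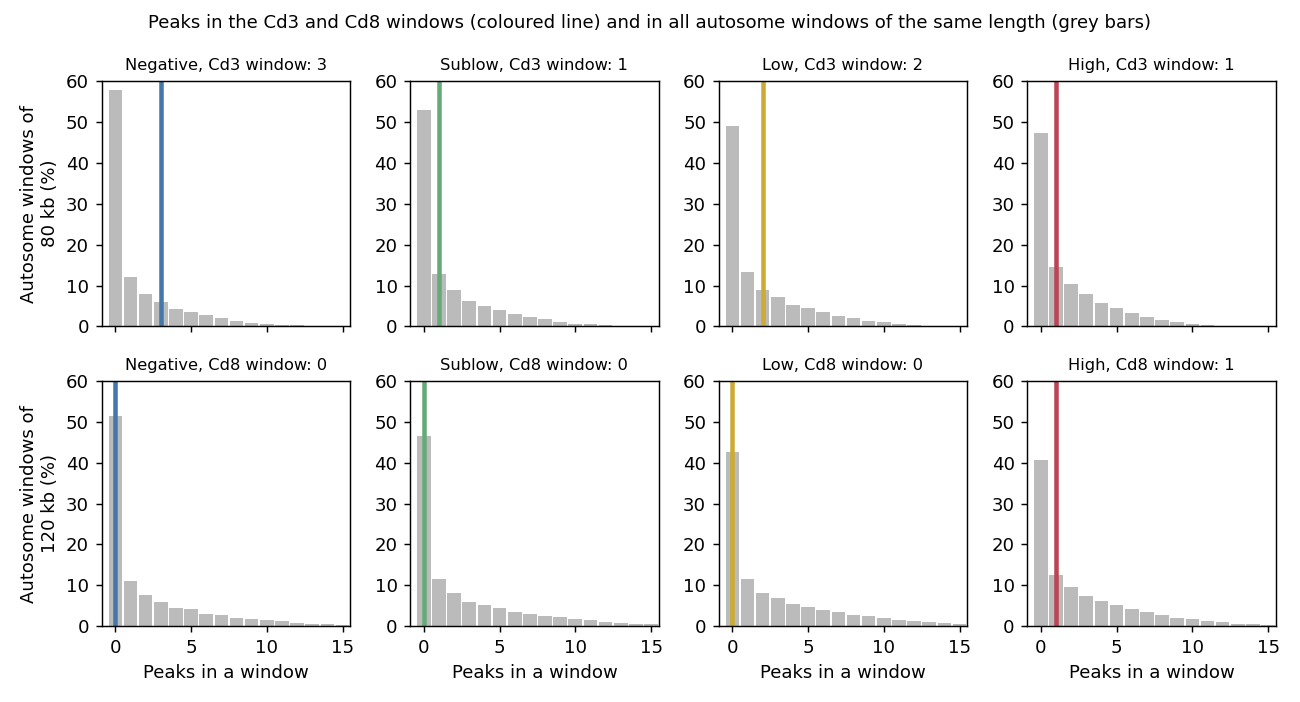
Number of peaks in the Cd3 window (upper row, 80 kb) and the Cd8 window (lower row, 120 kb) as a coloured line, for each list, over the share of autosome windows of the same length with each number of peaks (grey bars, percent). The horizontal axis ends at 15 peaks. No line lies beyond 3 peaks, and the lines at 0 for Negative, Sublow and Low in the Cd8 window fall on the tallest bar.

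Of the bases in the Cd3 window, 1097 were covered in Negative, 1053 in Low, 857 in Sublow and 830 in High, or 1.37%, 1.32%, 1.07% and 1.04% of it. Most of these bases came from 1 region that all lists shared. It spanned 888 bp at chr9:44773175-44774062, and 733 of those bases were inside the peak of every list. Its peak was 740 bp (Negative), 857 bp (Sublow), 878 bp (Low) and 830 bp (High) wide, wider than 82.6%, 82.7%, 86.5% and 86.4% of the peaks of the same list. The 4 widths were thus alike, with Negative the narrowest and Low the widest. The starts of the 4 peaks lay within 31 bp of each other and their ends within 124 bp.

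A region held by all 4 lists is the most frequent kind in these data, at 33.1% of merged regions. Among the 25643 such regions with 1 peak per list, the median peak measured 529 bp (Negative), 658 bp (Sublow), 643 bp (Low) and 565 bp (High). The region of all lists in the Cd3 window had peaks wider than 73.3%, 71.6%, 74.7% and 75.5% of these, in the same order. It lay 13175 bp inside the window, at the end with the lower coordinates. In RefSeq's gene order on GRCm38.p6, Cd3g, Cd3d and Cd3e stand side by side between Ube4a, which encodes a ubiquitin ligase, and Mpzl2, which encodes an adhesion protein of epithelia. An mm9 annotation was not used here, so whether this region belongs to a Cd3 gene or to a neighbour was not determined. Its presence in all lists therefore cannot be read as an open Cd3 gene.

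The other peaks of the Cd3 window were narrow and belonged to Negative and Low. A region of 193 bp at chr9:44774954-44775146 was held by Negative (193 bp) and Low (175 bp), 891 bp beyond the region of all lists. The Low peak lay wholly within the Negative one, and the peaks ended at the same base. An identical end was found in 3.40% of the 33707 overlapping Negative and Low peaks compared, and an identical start or end in 6.55%. Sublow and High held no peak there, and their nearest peaks, which were those of the region of all lists, ended 891 and 924 bp short of it. Presence in Negative and Low but not in Sublow or High is the rarest of the 15 possible patterns, with 262 regions or 0.318% of the total. In their own lists the Negative peak was wider than 16.2% of peaks and the Low peak wider than 7.83%. The median width of the 262 regions was 227 bp, and 30.9% were narrower than the 193 bp of this one.

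The last region of the Cd3 window was held by Negative alone. It spanned 164 bp at chr9:44825039-44825202, 14798 bp from the edge with the higher coordinates, and was wider than 9.68% of Negative peaks. The nearest peaks of Sublow, Low and High were 25.0, 25.1 and 25.2 kb away and lay outside the window. Regions of Negative alone number 5620, or 6.82% of merged regions. Their median was 201 bp wide, and 28.0% were narrower than this one. Between it and the region of Negative and Low, 49892 bp held no peak of any list. Gaps of that length or longer were 9.75% of the gaps between merged regions. That share has the same limit as at Cd8, since this was the longest gap in the window.

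**Figure D3:**
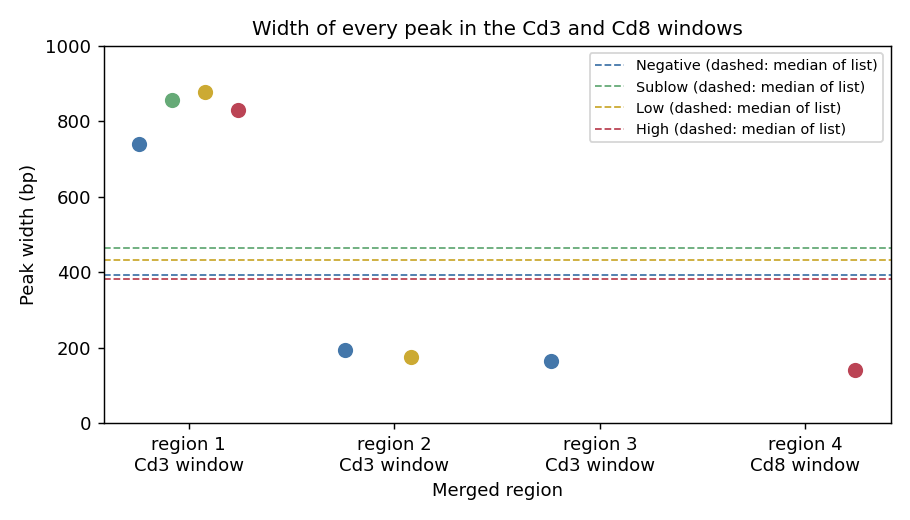
Width in bp of each of the 8 peaks in the Cd3 and Cd8 windows, by merged region in order of coordinates within each window, with the median width of each list as a dashed line. The 4 peaks of region 1 lie between 740 and 878 bp, above every list's median, and the other 4 lie between 140 and 193 bp, below every median.

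The peaks fell into wide ones, all of 1 region that every list shared, and narrow ones that were held by 1 or 2 lists. Merged regions over the genome differed in the same way. Their median width was 743 bp for regions of all 4 lists. It was 227 bp for Negative and Low only, 201 bp for Negative alone and 245 bp for High alone. The 4 peaks of the shared region were each above their list's median width of 394 bp (Negative), 464 bp (Sublow), 433 bp (Low) or 383 bp (High), and the other 4 were each below it. Of the 4 merged regions, Negative held 3, Low 2, High 2 and Sublow 1, while over the genome these lists held 53.9% (Negative), 69.8% (Low), 65.1% (High) and 62.8% (Sublow) of merged regions. None of the 4 was held by Sublow alone or by Low alone, kinds that make up 2.06% and 6.41% of all. No narrow region was found at both loci in the same list: Negative and Low had theirs at Cd3 only, and High had its own at Cd8 only. With 4 regions in all, this difference between the loci has no test.

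The edges of the windows decided some of these counts, since peaks lay close outside them. Beyond the Cd3 window, at chr9:44850197-44850956, all 4 lists held a peak, of 616 bp (Negative), 760 bp (Sublow), 678 bp (Low) and 486 bp (High), starting from 10.2 to 10.4 kb past the edge. Beyond the Cd8 window at its higher end lay 3 regions. The first, at chr6:71370187-71370351, was held by Negative alone with 165 bp. The second, at chr6:71370910-71371209, was held by Negative (300 bp), Sublow (169 bp) and Low (172 bp), and the last, at chr6:71372259-71372608, by Negative (323 bp) and Sublow (191 bp). High held none of these 3, and its first peak on that side was 24.4 kb past the edge. Over the genome the patterns of these 3 regions make up 6.82%, 8.92% and 3.17% of merged regions, in the same order. At the lower end a region of all 4 lists spanned 2014 bp at chr6:71220252-71222265, and Negative alone held 439 bp at chr6:71228635-71229073. These regions are outside the member windows and were not assigned to genes.

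A peak missing from a consensus list does not measure how many T cells a population held, because the lists give neither signal nor a limit of detection. Loci of other lymphocyte genes, and of epithelial genes that would check the labelled cell type, were not analysed here.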

How the data were processed

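Omni-ATAC-seq of 12 libraries from 4 sorted populations was analysed as the authors deposited it: 1 consensus list per population with the chromosome, start, end and name of each peak. Per the submitters' processing notes, the build was mm9 and the tools were MACS2 2.1.2, deepTools 2.5.2, Picard 2.10.3, Bowtie2 2.3.4 and Trim Galore 0.4.3. Their settings, the rule of the consensus and any shift for the transposase are not given in the sources used here. Read as GRCm38 positions, the lists overlapped 4.26 to 5.17% of 32851 RefSeq promoters, and mm9 was kept. Positions were read as 1-based, ends included. Peaks overlapping by 1 bp or touching were merged with Python 3.11.15 and numpy 2.4.6, and figures used matplotlib 3.10.9. The merging was tested on simulated data of well separated regions with at most 1 peak per list in each. Peaks as narrow as the narrow ones here, and several peaks of a list in 1 region, were not simulated. Grid windows ran over 19 autosomes between the first and last merged region, and a peak across an edge counted in both. The rule named the 5 members and described every region in their windows. The members, windows and lists were chosen with earlier results of these data known. Alternatives changed window edges, overlap, narrow peaks, list length and the start base.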

Additional observations from a re-analysis of the deposited data

How the results depend on the processing

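No paired analysis was possible because the deposited lists give no value for single libraries, and no library could be left out. Of 144 values recomputed under 8 alternatives, 106 kept to within 1.5 times the reported one and 38 did not. The 106 include values of 0 at Cd8 that could not change under alternatives that only drop peaks. Requiring peaks wholly inside the window, counting starts from 0, a reciprocal overlap of 50% and merging peaks up to 500 bp apart moved none. None of these could have moved a value here. The peak nearest to an edge lay 6794 bp inside it, and the smallest gap between regions was 891 bp. Peaks of the same region shared most of their bases, and a shift of 1 base stays within the limit. These unchanged values are among the 106 too. With peaks of at least 200 bp, or with the 22730 widest peaks of each list, Negative and Low each held 1 peak at Cd3, leaving 1 merged region and 0 held by 1 list alone, and the Cd8 window held 0 High peaks, 0 High bases, 0 regions and 0 held by 1 list alone. Windows 10 kb narrower at both ends also gave 0 for each of these at Cd8. Windows 20 kb wider took in the flanking peaks. At Cd3 they gave 2 peaks each in Sublow and High, 1713 (Negative), 1617 (Sublow), 1731 (Low) and 1316 (High) bases, and 2 regions of all 4 lists. At Cd8 they gave 6 peaks in Negative and 3 each in Sublow, Low and High, 2428, 2341, 1923 and 1570 bases in that order, and 6 regions, of which 1 was held by all 4 lists and 3 by 1 list alone. Fewer or more peaks follow from how these alternatives are built. Depth is unknown, so a region missing from a list cannot be called closed.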
